A study of Mus musculus with 2 samples.

Results

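Levels of 9 genes that mark the oligodendrocyte lineage were read from total RNA of the embryonic mouse forebrain. The genes were Olig1, Olig2, Nkx2-2, Pdgfra, Cspg4, Gpr17, Mbp, Mog and Cnp. They were chosen by name, as known markers of successive stages of this lineage, and were found by gene identifier among 21461 nuclear protein-coding genes. All 9 were measured, together with their 32 annotated transcripts. The study sampled 2 forebrains at embryonic day 14.5 from mice of strain B6NCrl, a C57BL/6 substrain, with no treatment and no engineered allele named in the labels. The samples form 1 group of biological replicates 1 and 2, each labelled as the forebrain of 1 pup and collected on different days, although the sex entry reads as a pool of males and females. Each library took 10 ng of RNA above 200 nt in length plus spike-in RNAs, and the linked protocol carries the name Smart-seq, which starts cDNA at poly(A) tails. With 1 group there is no contrast between conditions, so the values are compared between genes, between transcripts and between the embryos, without a test.

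Oligodendrocytes are the cells that wrap axons of the central nervous system in myelin. In the forebrain their first precursors arise from ventral progenitors under Sonic hedgehog signalling, and later ones arise from dorsal progenitors. The precursors carry the receptor for platelet-derived growth factor and the proteoglycan NG2, divide and migrate, pass through a committed stage marked by Gpr17, and then switch on myelin genes, which in the mouse forebrain happens mainly after birth. Several of these genes are also used elsewhere, Olig1 and Olig2 by ventral progenitors, and the receptor and the proteoglycan by mesenchymal cells and by pericytes, the contractile cells on capillaries.

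The libraries held 35310017 expected counts (replicate 1) and 29250404 (replicate 2). TPM is a level per unit of length, scaled to the same sum in each library. At an effective length of 1 kb, 3 counts, set here as a floor for detection, were worth 0.131 and 0.170 TPM. Genes of the forebrain were present and those of more posterior tissue were near 0. All 6 neuron markers, all 7 radial glia markers and all 9 markers of ventral progenitors and interneurons reached 1 TPM in both libraries. So did 59.6% of all nuclear protein-coding genes, and 0 of 8 markers of hindbrain and spinal cord, 5 of which had no count. Over the 13057 genes whose mean TPM was 1 or more, the log2 ratio of replicate 2 to replicate 1 (TPM + 0.1) had a median of 0.16, so differences between the embryos are also given relative to that median.

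Of the 9 genes, 7 reached 1 TPM in both libraries, against 59.6% of all nuclear protein-coding genes. Mog passed this level in replicate 2 only and Gpr17 in neither. The median over the 9 genes was 5.04 ± 0.764 TPM (SD of the medians of the libraries, n = 2), beside 4.25 ± 0.509 TPM over all nuclear protein-coding genes. The 9 genes together summed to 59.44 TPM in replicate 1 and 80.45 TPM in replicate 2, from 4064.56 and 4290.31 expected counts. In whole tissue, fewer cells of a type and less RNA per cell cannot be told apart.

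**Figure D1:**
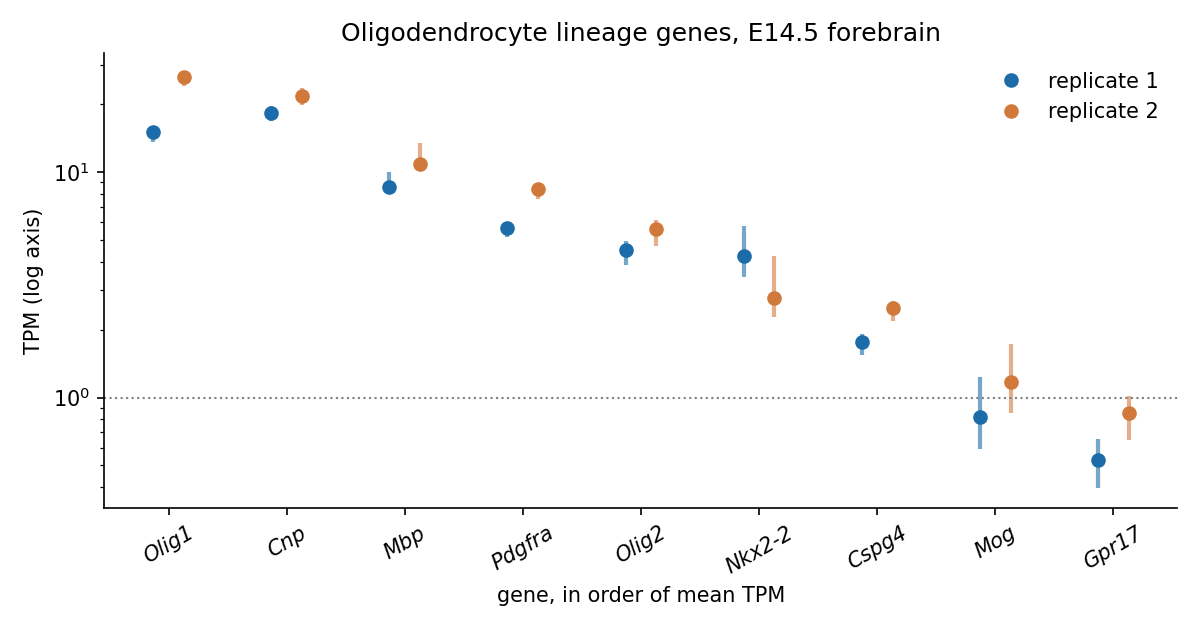
TPM of the 9 genes on a log axis, in order of the mean, with 1 point per library and, as bars, the deposited TPM interval, whose level the files do not state. Olig1 and Cnp stand highest, and Mog and Gpr17 lie near or under the dotted line at 1 TPM.

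The factors that specify the lineage were measured at different levels, with Olig1 above Olig2 and Nkx2-2. Olig1 (ENSMUSG00000046160.6, chr16:91269772-91271933, plus strand, GRCm38) encodes a basic helix-loop-helix factor of precursors and of maturing oligodendrocytes. It had 709 and 964 expected counts, or 15.02 TPM in replicate 1 and 26.52 TPM in replicate 2 (mean 20.8 ± 8.13, SD, n = 2). This was the widest relative spread among the 9 genes, with a coefficient of variation of 39.2%, and the mean was above that of 71.3% of all nuclear protein-coding genes. Olig2 (ENSMUSG00000039830.8, chr16:91225457-91228677, plus strand), the factor needed to make the lineage, ends 41.1 kb before Olig1 starts. It had 241 and 230 expected counts, or 4.50 and 5.58 TPM (mean 5.04 ± 0.764, SD, n = 2), and 51.8% of genes had a lower mean. Olig1 was therefore the higher of this neighbouring pair in both embryos. The Olig1 level was 3.34-fold the Olig2 level in replicate 1 and 4.75-fold in replicate 2, a log2 ratio of 1.99 ± 0.36 (SD, n = 2). Each of the genes has 1 annotated transcript, so neither level involves sharing of reads among isoforms.

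Nkx2-2 (ENSMUSG00000027434.11, chr2:147177546-147194243, minus strand), a homeodomain factor of ventral progenitors that later promotes differentiation of precursors, was the exception in the comparison of embryos. It had 135.86 and 74.95 expected counts, or 4.26 TPM in replicate 1 and 2.76 TPM in replicate 2 (mean 3.51 ± 1.06, SD, n = 2). It was the only one of the 9 genes with the higher TPM in replicate 1. Part of this level was carried by transcripts annotated as non-coding. The main coding transcript Nkx2-2-201 had 2.72 and 1.78 TPM, 63.92% and 64.28% of the gene. It was thus lower in replicate 2 in step with the gene. A non-coding model 340 nt long had 1.45 TPM in replicate 1 from 8 expected counts and 0 in replicate 2. The other non-coding model that was counted had 0 in replicate 1 and 0.41 TPM from 2 counts in replicate 2. Short models turn few counts into a sizeable TPM. Over the coding transcripts alone, Nkx2-2 had 2.81 and 2.36 TPM, and replicate 2 stood at 0.840 of replicate 1, against 0.648 for the whole gene. That sum includes another coding model, 1053 nt long, which went the other way. It had 0.09 TPM from 1.89 expected counts in replicate 1 and 0.58 TPM from 9.74 counts in replicate 2. The milder difference over coding transcripts thus rests on few counts. Markers of the hypothalamus and thalamus, where Nkx2-2 is also used, reached 1 TPM in both libraries for 4 of 7 genes. This is near the share over all nuclear protein-coding genes, 59.6%. None was at 0, and their summed level was 36.77 and 40.96 TPM. Most of that sum came from Gbx2, with 17.46 and 17.48 TPM, and Lhx9, with 12.38 and 16.89 TPM. Of the 7 markers, 4 were higher in replicate 2 and 3 in replicate 1. Their part in the Nkx2-2 level was not tested.

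The RNAs for surface proteins of precursors were higher in replicate 2. Pdgfra (ENSMUSG00000029231.11, chr5:75152292-75198215, plus strand) encodes the receptor through which platelet-derived growth factor A drives precursor division. It had 837 and 955 expected counts, or 5.66 and 8.40 TPM (mean 7.03 ± 1.94, SD, n = 2), and 55.6% of nuclear protein-coding genes had a lower mean. Cspg4 (ENSMUSG00000032911.5, chr9:56865033-56899870, plus strand) encodes NG2, the proteoglycan by which precursors are commonly stained. It had 322 and 350 expected counts, or 1.77 and 2.50 TPM (mean 2.135 ± 0.516, SD, n = 2), and 44.1% of those genes had a lower mean. The ratio of the receptor to the proteoglycan was nearly the same in the embryos. Pdgfra was 3.20-fold and 3.36-fold the Cspg4 level, a log2 ratio of 1.71 ± 0.05 (SD, n = 2). Both Pdgfra transcripts are coding. Pdgfra-201 held 81.92% of the TPM in replicate 1 and 93.06% in replicate 2, but the deposited TPM intervals of the second transcript, 0.121 to 3.15 and 0.00365 to 2.21, overlapped between the libraries.

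Markers of other cells that make these surface proteins were measured too. All 9 pericyte markers reached 1 TPM in both libraries, where 59.6% of all nuclear protein-coding genes did. They summed to 126.5 TPM in replicate 1 and 170.12 TPM in replicate 2, of which Vtn alone gave 74.37 and 103.98 TPM. All 9 markers of meningeal fibroblasts also reached 1 TPM in both libraries, and they summed to 266.36 and 371.5 TPM. Each sum was higher in replicate 2, by 1.34-fold for pericytes and 1.39-fold for fibroblasts, as were Pdgfra (1.48-fold) and Cspg4 (1.41-fold). So were 74% of all genes that averaged at least 1 TPM. Sums of other marker lists rose as well, by 1.28-fold for astrocytes, 1.24-fold for red blood cells and 1.19-fold for neurons. The rise was 1.23-fold for ventral progenitors and interneurons, 1.11-fold for hypothalamus and thalamus and 1.10-fold for microglia. The sum of radial glia was 1.00-fold. Of the astrocyte sum, 115.94 and 148.32 TPM, Gja1 alone gave 91.39 and 116.18 TPM. None of the pericyte and fibroblast markers was at 0, and the part of these cells in the levels of Pdgfra and Cspg4 was not tested.

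Gpr17 (ENSMUSG00000052229.5, chr18:31942997-31949636, minus strand), a receptor-like protein of committed precursors that are about to differentiate, was the lowest of the 9 genes. It had 62 and 76.29 expected counts, or 0.53 and 0.85 TPM (mean 0.690 ± 0.226, SD, n = 2). These counts were far above 3 in both libraries, so the gene was detected at a low level. Lims2, which lies on the opposite strand, shares 188 nt of exon with Gpr17 and had 42 and 51.71 expected counts. No source used here says whether counting used the strand, and reads within those 188 nt may not be told apart.

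**Figure D2:**
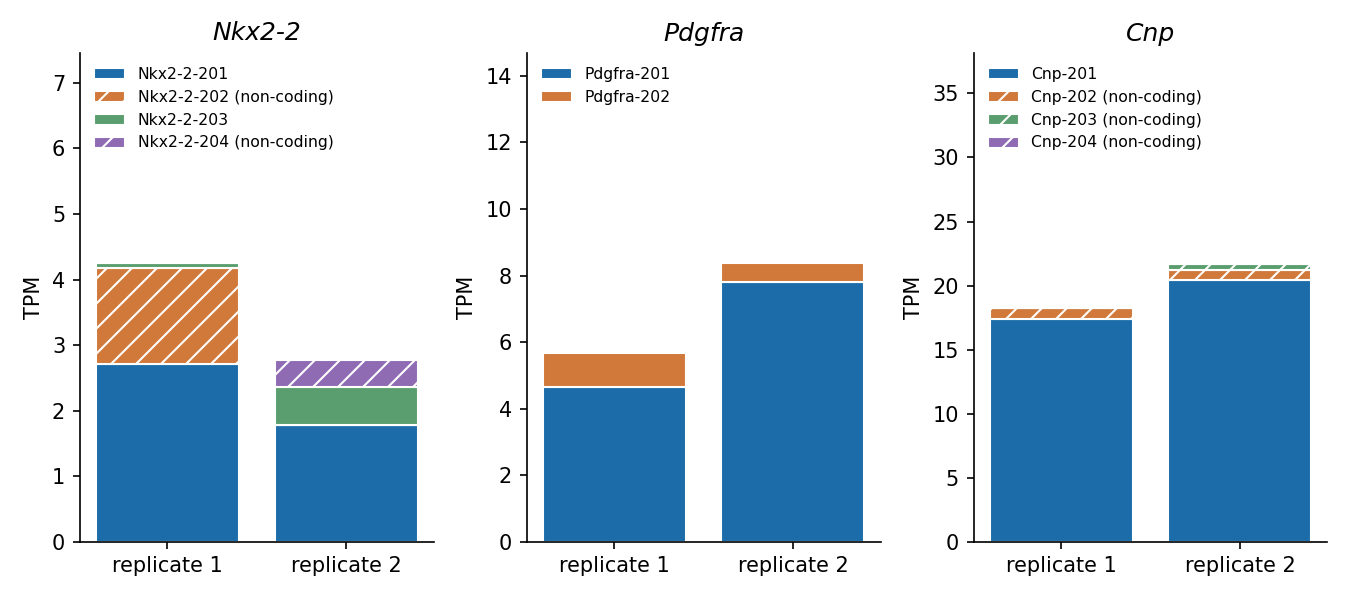
TPM of each transcript of Nkx2-2, Pdgfra and Cnp, stacked for each library, with hatching for transcripts annotated as non-coding. Non-coding models hold 1.45 of the 4.26 TPM of Nkx2-2 in replicate 1, while 1 coding transcript holds most of Pdgfra and of Cnp.

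The 3 myelin genes ranged from one of the highest levels in the set to one of the lowest. Cnp (ENSMUSG00000006782.12, chr11:100574904-100591729, plus strand) encodes a phosphodiesterase of non-compact myelin that is made early in the lineage and in small amounts by other cells. It had 929.7 and 839.07 expected counts, or 18.29 and 21.80 TPM (mean 20.0 ± 2.48, SD, n = 2), and 70.8% of nuclear protein-coding genes had a lower mean. Its only coding transcript, Cnp-201, held 94.94% and 93.77% of the gene. The neighbouring gene Dnajc7 lies on the opposite strand, shares 154 nt of exon with Cnp and had 2398.93 and 2027.71 expected counts. Mog (ENSMUSG00000076439.8, chr17:37010743-37023398, minus strand) encodes a glycoprotein on the outer face of mature myelin. It had 30 and 33 expected counts, or 0.82 and 1.17 TPM (mean 0.995 ± 0.247, SD, n = 2), all on the transcript Mog-201. The myelin genes were thus far from equal in level. Cnp was 22.3-fold the Mog level in replicate 1 and 18.6-fold in replicate 2.

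Mbp (ENSMUSG00000041607.12, chr18:82475146-82585637, plus strand) is named for myelin basic protein, which compacts the myelin sheath, but the gene has an upstream start as well. Transcripts from that start, called Golli, encode proteins that are also made in neurons and in cells of the immune system. The gene had 798 and 768 expected counts, or 8.59 TPM in replicate 1 and 10.87 TPM in replicate 2 (mean 9.73 ± 1.61, SD, n = 2). Nearly all of this was assigned to transcripts of the upstream start. That start lies 79.3 kb before the first start of the 11 classic transcripts.

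The 4 Golli-type transcripts summed to 8.09 and 10.52 TPM, which was 94.3% and 96.9% of the gene (mean 95.6 ± 1.82, SD, n = 2). The 11 classic-start transcripts, from which myelin basic protein is made, summed to 0.49 TPM from 22.07 expected counts in replicate 1 and 0.20 TPM from 6.99 counts in replicate 2. Little of the Mbp gene level was thus assigned to its classic transcripts. A single transcript, Mbp-205, held most of the signal, with 6.54 and 7.94 TPM, or 76.19% and 73.05% of the gene. Mbp-201 followed with 0.86 and 2.14 TPM. Both values lay above its deposited TPM intervals, which ended at 0.682 and 1.56 TPM, and its posterior means were 0.29 and 0.88 TPM. Mbp-208 had 0.69 and 0.44 TPM, and the fourth Golli-type transcript, Mbp-213, had 0 in both.

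The assignment was not equally firm for these transcripts. Mbp-201 shares 1945 of its 2492 nt with exons of classic transcripts, so its reads can be moved between the classes by the counting model. Mbp-208 shares 0 nt with those exons, and Mbp-205 shares 281 of 4797 nt. Those transcripts with little shared sequence, Mbp-205 and Mbp-208, held 84.3% and 77.2% of the Mbp TPM (mean 80.7 ± 5.02, SD, n = 2). By the deposited posterior mean, a second estimate of the same TPM, the Golli-type share was 84.2% and 82.9%, and the classic-start share 14.8% and 14.9%. The last exon of Mbp-205 is 4384 nt long, and 4103 nt of it, 85.5% of the transcript, lie outside every classic exon, mostly within the first intron of the classic transcripts. Unspliced RNA of the classic transcripts would be counted there too, and its part was not tested. The 6 neuron markers summed to 3162.73 and 3767.19 TPM, and their part in the Golli-type level was not tested.

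**Figure D3:**
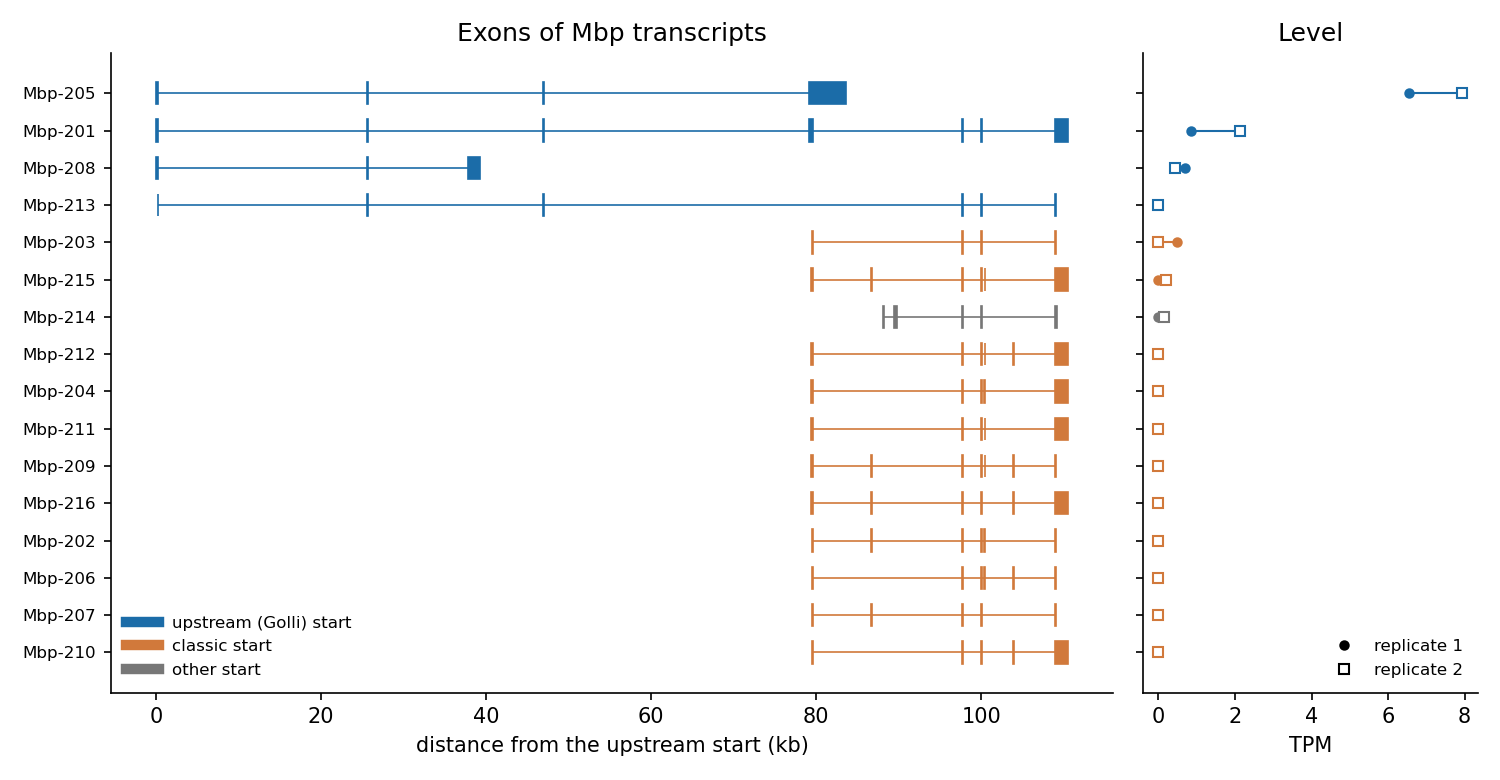
Left, exons of the 16 Mbp transcripts as distance in kb from the upstream start, drawn from GENCODE M21, in which some classic models have other lengths than in the deposited tables. Right, TPM of each transcript in each library; Mbp-205, from the upstream start, has 6.54 and 7.94 TPM, while each classic-start transcript has 0.49 TPM or less.

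Ordered by mean TPM, the genes ran Olig1, Cnp, Mbp, Pdgfra, Olig2, Nkx2-2, Cspg4, Mog and Gpr17. Neighbours in this order were called apart where the lower value of the higher gene exceeded the higher value of the lower gene, and 6 of 8 neighbouring pairs were. Olig1 and Cnp were not apart, since Cnp was the higher in replicate 1 and Olig1 in replicate 2. Mog and Gpr17 were not apart either, with 0.82 TPM as the lower value of Mog and 0.85 TPM as the higher value of Gpr17. Several of the pairs called apart were separated by little. The lower Mbp value was 8.59 TPM and the higher Pdgfra value 8.40 TPM, and the lower Pdgfra value was 5.66 TPM and the higher Olig2 value 5.58 TPM. The 6 genes of specification and precursor stages summed to 31.74 and 46.61 TPM and the 3 myelin genes to 27.70 and 33.84 TPM. The log2 ratio of these sums was 0.20 in replicate 1 and 0.46 in replicate 2 (mean 0.33 ± 0.19, SD, n = 2). With the Golli-type transcripts of Mbp left out of the myelin sum, the mean log2 ratio was 0.85.

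Between the embryos, none of the 7 genes that averaged at least 1 TPM differed by 2-fold, where 1.29% of all such genes did. At 1.5-fold, 2 of the 7 differed, Olig1 higher and Nkx2-2 lower in replicate 2, where 9.18% of all such genes differed. In the upward direction it was 1 of 7, against 8.18% of all such genes. The log2 ratio of TPM + 0.1 for Olig1 was 0.82, or 0.65 after the median of all genes was subtracted. That of Nkx2-2 was -0.61, or -0.77 relative to the median. Olig1 and Nkx2-2 thus stood on opposite sides of the other genes.

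The remaining genes differed less. Pdgfra had a log2 ratio of 0.56, Cspg4 0.48, Mbp 0.34, Olig2 0.30 and Cnp 0.25. Relative to the median of all genes these were 0.40, 0.31, 0.17, 0.14 and 0.09. Below 1 TPM, Gpr17 had a log2 ratio of 0.59 and Mog 0.47. Of all 9 genes, 8 had the higher TPM in replicate 2, where 70.3% of all genes with any count did. Of the 7 that averaged at least 1 TPM, 6 were higher in replicate 2, where 74% of all such genes were. Relative to the median, 6 of 7 were still above it, where 50% are by definition. With edgeR's TMM scaling of the counts, 6 of 7 were again higher in replicate 2, where 49.4% of all such genes were, and the log2 ratios ran from -0.63 for Nkx2-2 to 0.65 for Olig1.

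Counting error alone gave each difference an interval. The ratio of the Olig1 share of counts, replicate 2 over replicate 1, was 1.64 with an exact binomial 95% interval of 1.49 to 1.81. For Pdgfra it was 1.38 (1.25 to 1.51), for Cspg4 1.31 (1.12 to 1.53) and for Nkx2-2 0.666 (0.495 to 0.889). The intervals of these 4 genes excluded a ratio of 1, and so did those of Mbp, 1.16 (1.05 to 1.28), and of Gpr17, 1.48 (1.04 to 2.10). With TMM scaling the lower ends for Mbp and Gpr17 came close to 1, at 1.007 and 1.0003. The share of all genes whose interval excluded 1 is not given here, so these exclusions have no background beside them. For Olig2 the ratio was 1.15 (0.957 to 1.39), for Cnp 1.09 (0.991 to 1.20) and for Mog 1.33 (0.785 to 2.25), and these intervals of the share of counts included 1. With 1 library per embryo, differences of embryo, dissection and library preparation cannot be told apart. The deposited TPM intervals lay apart between the embryos for 5 of the 7 genes, Olig1, Pdgfra, Cspg4, Mbp and Cnp, where they did for 41.7% of all such genes. For Cnp the measures thus differed, since the TPM intervals, 16.9 to 19.6 and 19.8 to 23.6, lay narrowly apart while the interval of the count ratio included 1. For Nkx2-2 and Gpr17 they differed the other way, since the count ratio interval excluded 1 while the TPM intervals overlapped. Those of Nkx2-2 were 3.43 to 5.77 in replicate 1 and 2.27 to 4.25 in replicate 2. Those of Gpr17 were 0.398 to 0.656 and 0.648 to 1.02.

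**Figure D4:**
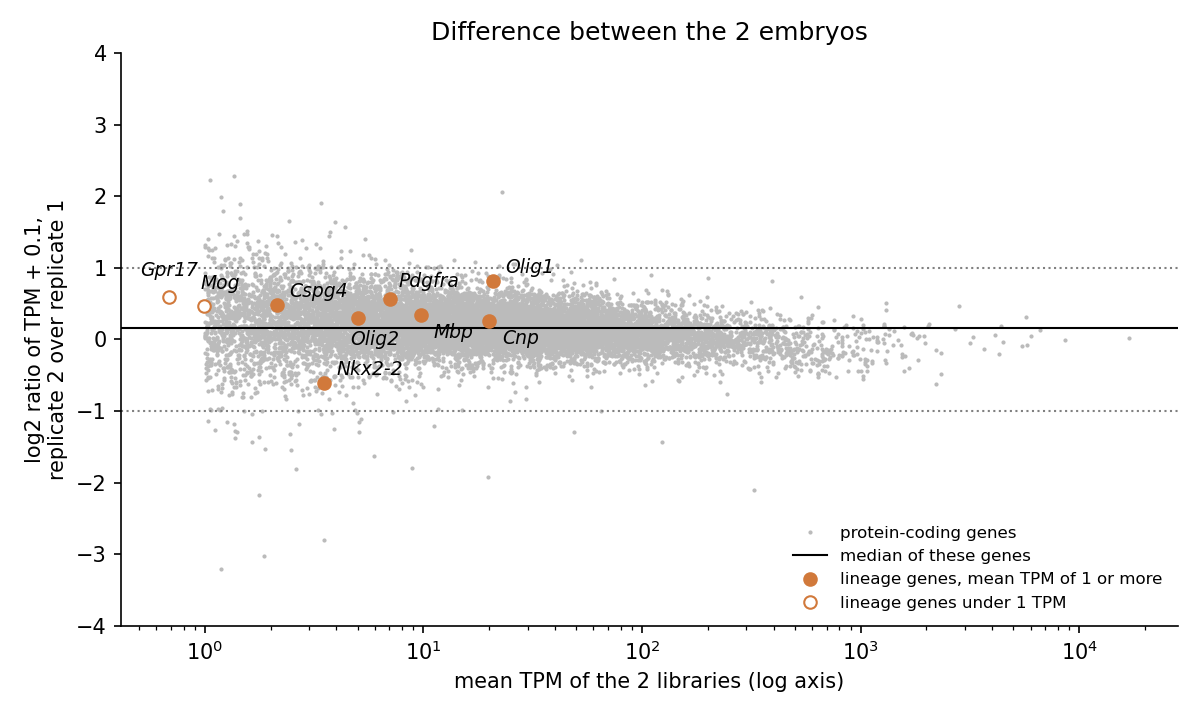
Log2 ratio of TPM + 0.1, replicate 2 over replicate 1, against mean TPM on a log axis, with grey points for nuclear protein-coding genes that average at least 1 TPM and dotted lines at 2-fold. Among the 9 lineage genes, Olig1 at 0.82 and Nkx2-2 at -0.61 lie farthest from the black line, the median of these genes at 0.16.

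Other genes of the pathway were read from 6 lists ordered by role. Their counts at 1 TPM or above in both libraries stand beside 59.6% of all nuclear protein-coding genes. Of 12 specification factors, 9 reached 1 TPM in both libraries, and their median was 4.33 TPM. Among the highest were Sox9, a factor of progenitors and glia, with 36.28 and 42.10 TPM, and Nkx2-1, a factor of the medial ganglionic eminence and hypothalamus, with 13.27 and 11.84 TPM. The ligand Shh itself had 0.60 and 0.74 TPM, and its target Gli1 had 0.48 and 0.86 TPM. The receptor component Smo had 7.85 and 8.53 TPM. Nkx6-1, a ventral patterning factor, was the lowest of the list with 0.11 and 0.20 TPM.

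Ligands for Pdgfra were present beside the receptor. Pdgfa, its main ligand for precursors, had 11.79 and 13.12 TPM, above the receptor in both embryos. Pdgfc, another ligand of this receptor, had 6.15 and 7.06 TPM. Pdgfrb, the related receptor of pericytes, had 6.77 and 10.92 TPM and so was also higher than Pdgfra in both. Pdgfb had 2.22 and 2.74 TPM, Pdgfd 1.88 and 1.47 TPM, and the growth factor gene Fgf2 0.16 and 0.17 TPM. Of this list of 6 genes, 5 reached 1 TPM in both libraries.

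Genes used as precursor markers ran from high levels to a few counts. Of 13 measured, 10 reached 1 TPM in both libraries, with a median of 14.9 TPM. The highest were Ptprz1, a receptor phosphatase also of radial glia, with 47.27 and 55.19 TPM, the matrix proteoglycan Vcan with 33.60 and 43.04 TPM, and Cacng4, a subunit associated with glutamate receptors, with 29.44 and 34.73 TPM. Sox10, the factor that the whole lineage keeps from precursor to myelinating cell, had 44 and 75 expected counts, or 0.74 and 1.63 TPM. It was the 1 gene past 2-fold between the embryos among the 11 of the list that averaged at least 1 TPM, where 1.29% of all such genes were, and its level was higher in replicate 2, as for 74% of all such genes. Zfp488 had 0.07 and 0.12 TPM, and Matn4 0.06 and 0.09 TPM.

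Genes of later stages ranged as widely. Of 8 premyelinating genes, 6 reached 1 TPM in both libraries. The highest were Tcf7l2, a Wnt pathway factor, with 159.81 and 185.88 TPM, and the deacetylase gene Sirt2 with 90.66 and 96.71 TPM. These are levels of whole tissue, and the part of cells outside the lineage in them was not tested. Myrf, the factor that switches on myelin genes, had 0.17 and 0.34 TPM, and Enpp6, an early marker of differentiating cells, had 0.12 and 0.11 TPM. Of 20 further myelin genes, 9 reached that level, and their median was 0.985 TPM against 4.25 TPM over all nuclear protein-coding genes. The highest members of that list are genes that other cells use as well, Apod with 54.28 and 78.04 TPM, the tight junction gene Cldn11 with 45.99 and 51.47 TPM, and the transferrin gene Trf with 28.19 and 36.12 TPM. Among the lowest were Opalin, a membrane protein gene of myelin, with 0.03 and 0 TPM, and Klk6, which had no count in either library. The sum of meningeal fibroblast markers in replicate 2 was 1.39-fold that in replicate 1, beside 1.21-fold for the myelin list. The precursor list stood at 1.24-fold and the neuron markers at 1.19-fold. The part of fibroblasts in the myelin list was not tested.

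Genes that hold back differentiation were the highest of the 6 lists by median, 26.0 TPM, and 8 of 9 reached 1 TPM in both libraries. This ranks levels of whole tissue, and the part of cells outside the lineage in them was not tested. Id2, an inhibitor of helix-loop-helix factors, had 434.52 and 446.40 TPM, and Sox5 had 83.27 and 109.50 TPM. Hes5, an effector of Notch that also marks radial glia, had 71.43 and 62.11 TPM, and Id4 had 49.32 and 72.17 TPM. Bmp4 was the lowest of that list with 0.98 and 1.27 TPM. Markers of astrocytes, the other macroglial cells, reached 1 TPM in both libraries for 3 of 6 genes, against 59.6% of all nuclear protein-coding genes.

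**Figure D5:**
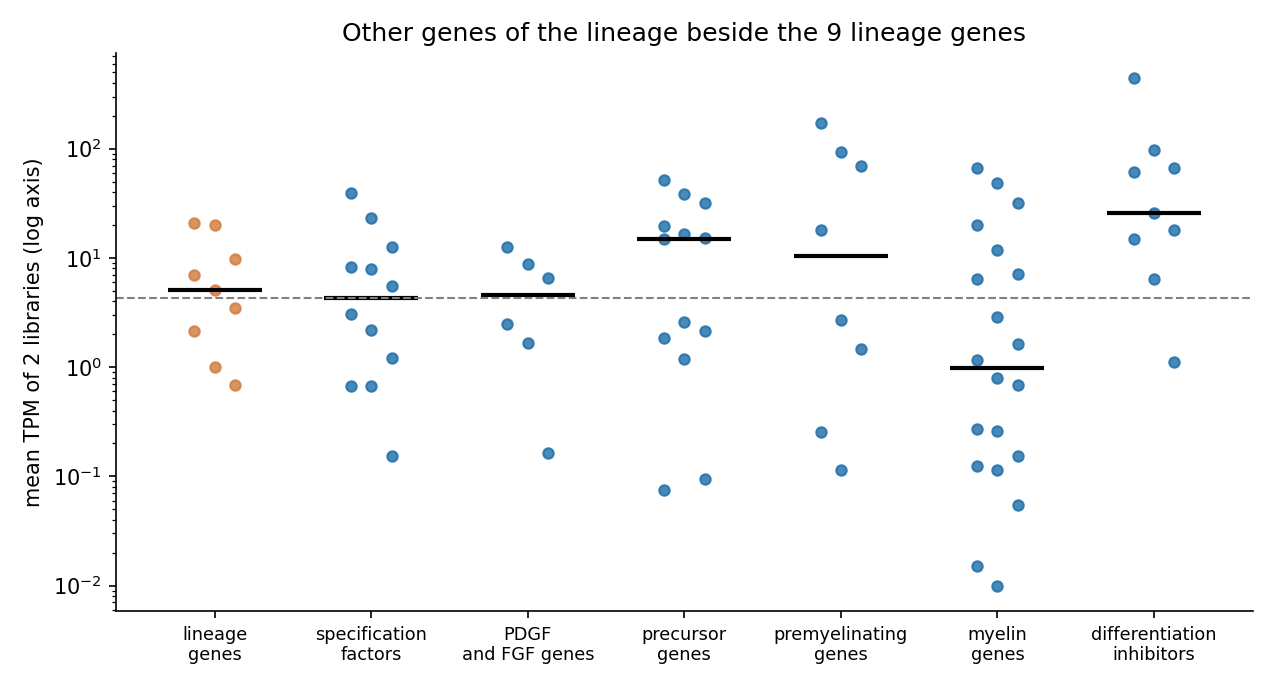
Mean TPM of each gene of the 6 lists and of the 9 lineage genes on a log axis, with the median of each group as a bar and the median of all nuclear protein-coding genes, 4.25 TPM, as a dashed line. The myelin list spreads from 66.2 TPM to a gene with no count, which is drawn at 0.01 TPM, and its median of 0.985 TPM is the lowest.

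Promoter windows of 300 bases, from 250 bases before to 50 bases after the annotated start, were taken from RefSeq on GRCm38.p6, which gave one for 6 of the 9 genes. Those of 3 genes are printed because they span the levels above, from Cnp at 20.0 TPM through Olig2 at 5.04 TPM to Mog at 0.995 TPM. They read 5′ to 3′ on the strand of the gene, and capitals mark each CG dinucleotide. Cnp is chr11:100574689-100574988 (plus strand), Olig2 is chr16:91225300-91225599 (plus strand) and Mog is chr17:37023349-37023648 (minus strand).
Cnp: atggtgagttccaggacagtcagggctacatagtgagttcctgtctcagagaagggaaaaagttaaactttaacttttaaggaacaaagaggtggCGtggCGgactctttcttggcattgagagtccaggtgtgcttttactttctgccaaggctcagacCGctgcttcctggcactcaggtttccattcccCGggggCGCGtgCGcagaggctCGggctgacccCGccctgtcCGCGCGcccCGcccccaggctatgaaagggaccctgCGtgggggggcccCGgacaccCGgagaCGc
Olig2: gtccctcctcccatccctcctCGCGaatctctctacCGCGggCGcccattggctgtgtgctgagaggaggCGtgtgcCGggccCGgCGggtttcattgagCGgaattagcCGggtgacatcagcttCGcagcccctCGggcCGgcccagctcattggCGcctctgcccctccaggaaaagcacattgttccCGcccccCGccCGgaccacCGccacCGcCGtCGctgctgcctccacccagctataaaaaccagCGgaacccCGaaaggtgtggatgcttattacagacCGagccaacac
Mog: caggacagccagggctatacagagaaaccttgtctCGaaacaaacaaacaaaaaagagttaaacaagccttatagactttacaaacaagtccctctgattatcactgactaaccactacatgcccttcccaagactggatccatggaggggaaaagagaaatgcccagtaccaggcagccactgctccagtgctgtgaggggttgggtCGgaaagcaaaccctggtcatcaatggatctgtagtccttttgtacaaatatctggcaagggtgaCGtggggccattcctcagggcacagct

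The windows differed in CG content. That of Olig2 held 25 CG dinucleotides, more than 81.6% of the 32851 windows in the table, whose median was 7. The windows of Cnp, Nkx2-2 and Cspg4 held 17 each, more than 68.6% of windows, that of Pdgfra held 5 and that of Mog 3. The GC content was 65.0% for Olig2 and 48.3% for Mog, against a median of 52.7%. The letters TATAAA, searched on both strands, occurred once in the Olig2 window and in none of the other 5, and in 13.6% of all windows. The letters GGGCGG, a GC box, searched on both strands, occurred in the windows of Olig2, Cspg4, Cnp and Nkx2-2, and in 35.7% of all windows. Of the 6 genes with a window, Pdgfra, at 7.03 TPM, and Mog, at 0.995 TPM, were without that match. Among these 6 the level was thus not ordered by the match, and the other members were not read. The Pdgfra window ends at 75152300, before the start of Pdgfra-201 at 75152306. A match describes letters only.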

How the data were processed

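Total RNA of 2 forebrains was measured as 1 group. Per the file headers, the authors deposited expected counts (estimated read numbers), TPM, FPKM, each transcript's percent of its gene, posterior means, and a TPM interval whose level is not stated. The notes deposited with the files name assembly mm10 and GENCODE M4 for counting. The aligner and quantifier are not given in the sources used here. Effective lengths were 99 nt shorter than lengths. Names, coordinates and transcript types came from GENCODE M21 on the same assembly by identifier without version, which matched 42462 of 43346 Ensembl rows. Lhfpl3, of the precursor list, was not analysed here.

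Python 3.11.15 with pandas 2.3.3 and scipy 1.17.1 gave means, SDs, exact binomial intervals (95%) and log2 ratios of TPM + 0.1, called at 2-fold for genes that averaged at least 1 TPM. Intervals cover counting error only. Expected counts were rounded to whole numbers for scaling factors of edgeR 4.0.16 (TMM) and DESeq2 1.42.0 (size factors), used as alternatives of scale. No p-value was computed, since the design has 1 group of 2. Golli-type transcripts were those starting over 10 kb before the cluster of classic starts. The fold call was tried on simulated counts that held counting error only. Differences between embryos, dissections or library preparations were not simulated, so that check does not cover them. All 9 members were named, and of each list the up to 4 highest and up to 3 lowest genes by mean TPM and those without a count. Some genes of these lists are not reported here, but counts, medians and sums include them. The members and lists were chosen with earlier results of these data known. Alternatives were other thresholds, pseudocounts, scalings and estimates, coding transcripts alone, and each library alone.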

Additional observations from a re-analysis of the deposited data

How the results depend on the processing

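The count of genes at 1 TPM or above in both libraries, 7 of 9, ran from 6 at a threshold of 2 TPM to 9 at 0.5 TPM. At 1.5-fold in place of 2-fold, the genes that differed between the embryos numbered 2 in place of 0. The Golli-type share of Mbp, 95.6% by TPM, was 98.1% by expected counts and 83.6% by the posterior mean TPM. It was 80.7% when only Golli-type transcripts sharing under 10% of their length with classic exons were counted, an alternative chosen after seeing the data. With each library alone the share ran from 94.3% to 96.9%. The log2 ratio of precursor to myelin genes, 0.33, was 0.54 on counts not divided by length and 0.85 with Golli-type transcripts left out, and ran from 0.20 to 0.46 with each library alone. The order of Olig1 and Cnp, which were not apart, turned with replicate 1 alone, at 15.02 and 18.29 TPM. The log2 ratios of Olig1 to Olig2 and of precursor to myelin genes stayed above 0 under each alternative run. Depth limits Mog, with 30 and 33 counts, and the classic Mbp transcripts, with 22.07 and 6.99. No paired analysis was possible because the design has 1 group, so the replicate numbers pair no samples.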

Other observations

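Some further genes known as particular to the lineage were low in both libraries. The precursor factor Sox10 had 0.74 and 1.63 TPM, the myelin gene regulator Myrf 0.17 and 0.34 TPM and Opalin 0.03 and 0 TPM, and none of the 3 reached the lower of the Olig2 values, 4.50 TPM. Bcas1, a gene of premyelinating cells, had 63 and 70.91 expected counts, or 1.16 and 1.78 TPM, beside 0.82 and 1.17 TPM for Mog. Microglia markers reached 1 TPM in both libraries for 7 of 7 genes and red blood cell markers for 6 of 6. The share over all nuclear protein-coding genes was 59.6%.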
